A study of Mus musculus with 15 samples.

Results

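The Apela knockout strain NEO-IN was compared with wild-type in single whole mouse embryos at embryonic day 7.5, over 9 of the 15 libraries of the study and 16416 of its 45232 genes. The libraries were chosen by the genotype in their labels, and the genes by a mean normalized count of at least 10 over the 9 libraries. The 6 NEO-IN embryos were Apela null and came from crosses of homozygous knockout parents, so they were not genotyped one by one. The 3 embryos they were set against were labelled wild-type. Both groups had a mixed C57Bl6 and CD-1 background, were matched in stage by morphology, and were lysed whole, with embryonic and extraembryonic tissue together. The labels spell out neither the name NEO-IN nor which bases of Apela were removed, and give no sex, litter or batch. The other 6 libraries came from a further Apela knockout strain, NEO-OUT, on the same background and at the same stage, and are used here to ask whether a NEO-IN value differs between the strains.

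Apela (also called Elabela or Toddler) is a small secreted peptide hormone. It signals through the apelin receptor Aplnr, a G protein-coupled receptor that also binds apelin, the product of Apln. In zebrafish, Apela guides the movement of mesoderm and endoderm cells during gastrulation. In the mouse, the pathway is known for its part in the early heart and blood vessels, and at this stage gastrulation is laying down the mesoderm from which both arise.

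The coding sequences of both ligands are shown because the RNA of Apela was nearly lost in NEO-IN embryos while that of Apln was not called changed. They were read from the GENCODE annotation of GRCm38, 5′ to 3′ on the coding strand. Capitals mark the last 11 codons before the stop, which encode the carboxy-terminal end that binds the receptor. The Apela open reading frame has 54 codons before the stop and spans chr8:65035666-65036965 on the minus strand, introns included.
Apela: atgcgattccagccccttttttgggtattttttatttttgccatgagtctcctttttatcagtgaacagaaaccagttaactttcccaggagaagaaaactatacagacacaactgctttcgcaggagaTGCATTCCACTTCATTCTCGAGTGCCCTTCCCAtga
The Apln open reading frame has 77 codons and spans chrX:48028299-48034505 on the minus strand.
Apln: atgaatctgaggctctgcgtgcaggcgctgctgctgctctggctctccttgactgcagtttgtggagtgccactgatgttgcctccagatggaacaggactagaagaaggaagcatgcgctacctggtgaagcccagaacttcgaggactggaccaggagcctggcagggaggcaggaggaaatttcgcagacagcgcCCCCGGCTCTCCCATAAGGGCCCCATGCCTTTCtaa

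The libraries held 48.8 to 61.0 M reads and 20427 to 21059 detected genes each. A normalized count is the number of reads of a gene divided by a size factor of the library. Changes were tested with limma-trend on log2(normalized count + 1), and a gene was called when its p-value, adjusted by the Benjamini-Hochberg method over all genes tested, was under 0.05. The p-values measure the spread between single embryos. All 3 wild-type libraries held Xist RNA (normalized counts of 5566, 5940 and 7588) and at most 2.1 normalized counts over 4 Y-linked genes. NEO-IN embryos 1, 2 and 3 held 7619 to 8722 normalized counts of these Y-linked genes, while NEO-IN embryos 4, 5 and 6 held at most 5.9. The Y-linked reads thus go with the consecutive embryo numbers 1 to 3, and sex and any shared litter or handling of these 3 cannot be told apart. With NEO-IN embryos 4 to 6 alone against wild-type, 15 of the 52 called genes named below by rule lost their calls, and each of these 15 also lost its call in at least 1 fit that left out a single embryo.

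In NEO-IN embryos 406 of 16416 genes were called (2.47%), 215 of them higher (1.31%) and 191 lower (1.16%) than in wild-type. Of these, 98 changed by 2-fold or more on the log2(normalized count + 1) scale, 50 higher and 48 lower, and the median size of a called log2 fold change was 0.51. Over all genes tested the median log2 fold change was 0.001 and 50.2% were positive. The called genes comprised 358 protein-coding genes and 31 pseudogenes. The 6 NEO-IN embryos all lay outside the wild-type range for 398 of the 406, while over all genes 5.45% had every NEO-IN embryo above every wild-type embryo and 5.38% had every NEO-IN embryo below. Only 100 genes were called in all 9 of the fits that left out 1 embryo. Without wild-type embryo 1, 2 or 3 the number called was 181, 159 and 187, and it was 78 once the trophoblast score of each embryo, described below among the extraembryonic markers, was a covariate.

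**Figure D1:**
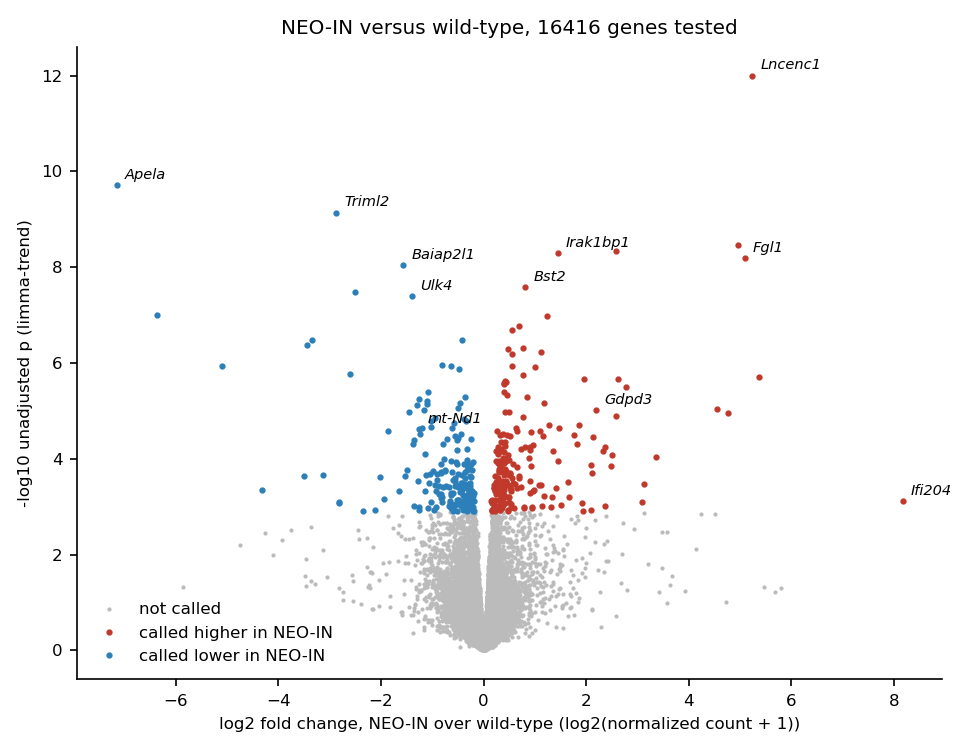
Log2 fold change of each gene in NEO-IN over wild-type embryos (x axis) against minus log10 of its unadjusted p from limma-trend (y axis), with 6 NEO-IN and 3 wild-type embryos. Grey points were not called, red points were called higher and blue points lower. Lncenc1 and Apela stand farthest up, and Ifi204 lies far to the right with a weak p.

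Apela RNA was nearly absent from every NEO-IN embryo, while its receptor and the other ligand of that receptor were not called. Apela (ENSMUSG00000079042.6, chr8:65028417-65037336, minus strand) had normalized counts of 5.83 to 25.9 (median 9.73) in the 6 NEO-IN embryos, against 2004, 1902 and 1082 in the wild-type embryos. The groups do not overlap, and NEO-IN embryo 4 held the highest residual level. Mean Apela was 11.5 ± 7.24 (SD, n = 6) for the NEO-IN group, against 1663 ± 505 (SD, n = 3) for wild-type, a log2 fold change of -7.16, with an SE of 0.37 and a limma adjusted p = 1.58e-06. The residual reads were fewer in NEO-IN than in NEO-OUT, where they ran from 50.6 to 107 (median 60.6; NEO-IN minus NEO-OUT -2.60 on the log2 scale, limma adjusted p = 8.74e-05).

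Apln had normalized counts of 6335 to 8278 (median 7203) in NEO-IN and of 7859, 8600 and 7566 in wild-type. These groups overlap, and the log2 fold change of -0.16 ± 0.08 (SE) was not called (limma adjusted p = 0.279). Aplnr had 8045 to 9315 (median 8494) in NEO-IN and 9178, 9633 and 9522 in wild-type. Only the highest NEO-IN embryo entered the wild-type range, but the log2 fold change of -0.14 ± 0.05 (SE) was not called (limma adjusted p = 0.130). In embryos 4 to 6 alone, which like the wild-type embryos hold Xist RNA, Aplnr was called lower by a small margin (log2 fold change -0.19, limma adjusted p = 0.0450).

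**Figure D2:**
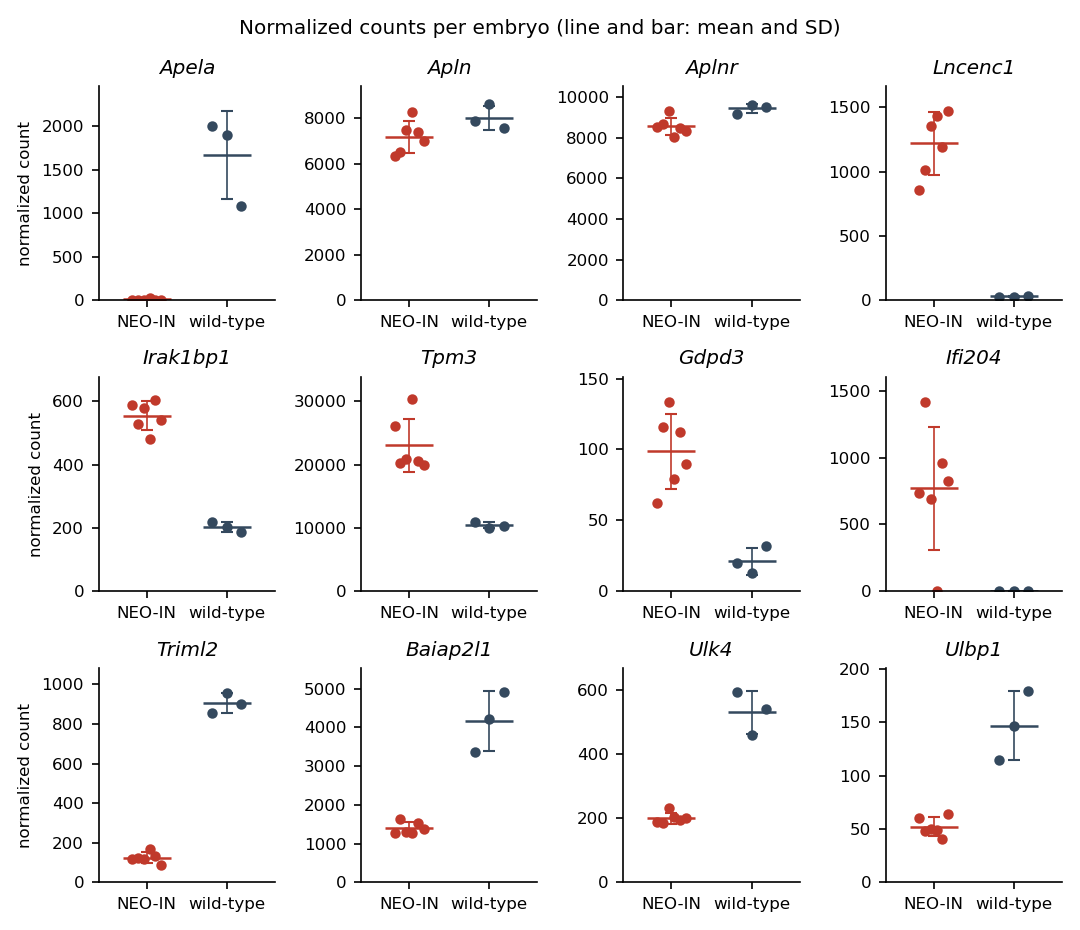
Normalized counts (linear y axes from 0) of 12 genes in each of the 6 NEO-IN embryos (red, left) and the 3 wild-type embryos (dark, right), with mean and SD. Apela, Triml2, Baiap2l1, Ulk4 and Ulbp1 are lower and Lncenc1, Irak1bp1, Tpm3 and Gdpd3 higher in each NEO-IN embryo, Apln and Aplnr overlap, and Ifi204 is at 0 in NEO-IN embryo 4.

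RNAs encoded by mitochondrial DNA were lower in NEO-IN embryos. This genome encodes core subunits of the respiratory chain, the mitochondrial ribosomal RNAs and the transfer RNAs, and is read by its own polymerase as long precursors that are cut into single RNAs. Of its 14 genes tested, 11 were called lower and none higher, against 1.16% of all genes called lower. mt-Nd1, a subunit of complex I, had 34270 to 66120 normalized counts (median 56230) in NEO-IN, against 107400, 119300 and 160300 in wild-type. The highest NEO-IN embryo lay well under the lowest wild-type embryo (log2 fold change -1.25, with an SE of 0.19 and a limma adjusted p = 0.00546). mt-Nd2 (log2 fold change -1.19) and mt-Nd5 (-1.17), also of complex I, mt-Co1 of cytochrome c oxidase (-1.11) and mt-Cytb of complex III (-1.11) differed to a similar degree. Each of these 5 was called in every fit that left out 1 embryo, and each in embryos 4 to 6 alone.

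The ribosomal RNA mt-Rnr1 had 4241 to 6745 normalized counts in NEO-IN, against 9967, 12210 and 10470 in wild-type (log2 fold change -1.02, limma adjusted p = 0.00529). mt-Rnr2 fell less, by 0.55 on the log2 scale (limma adjusted p = 0.0435). The transfer RNA genes mt-Tl1, mt-Ti and mt-Tm were called lower as well (log2 fold changes from -1.02 for mt-Ti to -0.90 for mt-Tm). These calls were less stable: mt-Rnr2 and mt-Ti kept theirs in 2 of 9 fits that left out 1 embryo (adjusted p up to 0.165 and 0.187), mt-Tl1 and mt-Tm lost theirs without wild-type embryo 2 or 3 (up to 0.0925 and 0.112), and all 4 lost theirs in embryos 4 to 6 alone and with the trophoblast covariate. The exceptions were mt-Tw, mt-Tt and mt-Nd6, which were not called: mt-Tw was at 61.5 to 82.4 in NEO-IN and 94.6, 64.4 and 65.2 in wild-type, and mt-Nd6, which alone among the protein genes is encoded on the light strand, was at 25.8 to 65.1 in NEO-IN and 50.9, 117 and 89.4 in wild-type. RNA was selected for poly(A) tails, so these levels are those of the RNAs captured that way. Other mitochondrial protein genes, such as mt-Co2, did not reach the minimum level and were not tested.

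**Figure D3:**
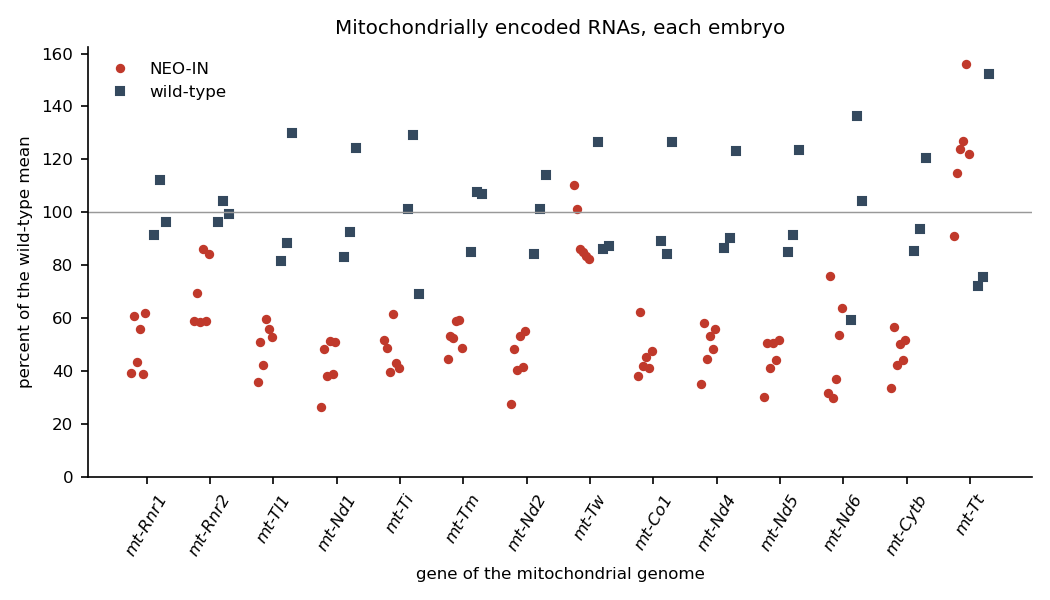
Each embryo's normalized count as a percent of the wild-type mean (y axis, from 0) for the 14 tested genes of the mitochondrial genome (x axis, in genome order), with 6 NEO-IN embryos as red circles and 3 wild-type embryos as dark squares. For the 11 called genes the NEO-IN embryos lie below the wild-type embryos, with NEO-IN embryo 1 lowest for mt-Nd1 (26.6% of the wild-type mean), while mt-Tw and mt-Tt mix both groups.

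The summed share of mitochondrial genes among all normalized counts was 0.302% to 0.501% for NEO-IN embryos, against 0.789%, 0.844% and 1.12% in the wild-type embryos. NEO-IN embryo 1 held the lowest share and wild-type embryo 3 the highest, and the groups do not overlap. The listed nuclear genes for the respiratory chain and for mitochondrial transcription and RNA handling gave no call. Of 27 nuclear genes of the respiratory chain none was called (median log2 fold change 0.03), with Ndufs1 of complex I at 0.09 and Cox5a of cytochrome c oxidase at 0.32. Of 21 genes for mitochondrial transcription and RNA handling none was called either (median -0.03), the polymerase gene Polrmt standing at -0.03 and the transcription factor gene Tfam at 0.10. In neither list did a member exceed 0.32 in size. Outside these lists, nuclear genes of the organelle were called in both directions. Examples are Hspe1, described below, which was higher, and Mrpl34, which was lower (-0.30). In whole embryos, fewer cells of a type and less RNA per cell cannot be told apart. No mitochondrial gene was called different between NEO-IN and NEO-OUT (lowest limma adjusted p = 0.0571, mt-Nd6), which does not show that the strains are alike.

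Among the largest increases were a long noncoding RNA, an interferon-inducible gene and a group of zinc finger genes. Lncenc1, a noncoding RNA described in mouse embryonic stem cells (chr13:97434970-97497007), had 857 to 1469 normalized counts (median 1272) in NEO-IN, against 29.1, 26.7 and 37.3 in wild-type. No embryo came near the other group (37.8-fold, log2 fold change 5.24, with an SE of 0.18 and a limma adjusted p = 1.64e-08). NEO-OUT embryos were at a similar level (1064 to 1750), and the strain difference was not called (limma adjusted p = 0.204).

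Ifi204, a DNA-sensing gene of the interferon-inducible p200 family on chromosome 1, was detected in 5 of the 6 NEO-IN embryos. Its normalized counts were 735, 1412, 691, 0, 955 and 825 in NEO-IN embryos 1 to 6, and 0 in each wild-type embryo. Against a floor of 3 reads per library (2.96 normalized counts), the NEO-IN mean of 769.8 was at least 260-fold higher. Since most low counts in these libraries were even, 1 read may not be 1 independent fragment, and this bound holds only for reads as counted. The call (limma adjusted p = 0.0405) was lost in each of 8 fits that left out 1 embryo (adjusted p up to 0.138) and held only without NEO-IN embryo 4. Ifi207, of the same family, was at 0 in NEO-IN embryo 4 and in each wild-type embryo and at 25.8 to 82.6 in the other NEO-IN embryos, and was not called (limma adjusted p = 0.0543). Only 7 of the 21 listed genes of this response reached the minimum level, 2 of them through NEO-IN embryos alone. Among the others, Oas1a (log2 fold change 0.20) and Rsad2 (0.18) had the smallest values and were not called, and the p200 gene Aim2 (1.21) was not called either (limma adjusted p = 0.133). The remaining member called was Bst2, the antiviral membrane protein tetherin on chromosome 8, at 1523 to 1717 (median 1660) in NEO-IN against 921, 876 and 1027 in wild-type (log2 fold change 0.81, with an SE of 0.06 and a limma adjusted p = 4.71e-05).

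A cluster of zinc finger genes on chromosome 4 held several of the larger increases. Its pseudogene Znf41-ps had 112 to 375 normalized counts in NEO-IN, against 36.4, 22.8 and 40.1 in wild-type (log2 fold change 2.78, with an SE of 0.34 and a limma adjusted p = 0.00136). Zfp991 had 199 to 504 in NEO-IN and 98.7, 73.3 and 96.9 in wild-type (log2 fold change 1.85, limma adjusted p = 0.00500), and Zfp992 had 371 to 1013 in NEO-IN and 187, 172 and 198 in wild-type (1.77, limma adjusted p = 0.00631). All 3 were lowest in NEO-IN embryo 1 and above every wild-type embryo in all 6. Another member, Zfp990, was at 80.0 to 725 in NEO-IN and 1353, 959 and 1270 in wild-type, and was not called (limma adjusted p = 0.0772). Zfp990 was at 424, 480 and 725 in NEO-IN embryos 1, 3 and 4 and at 84.5, 80.0 and 95.7 in embryos 2, 5 and 6. Zfp991 went the other way, at 199, 237 and 267 in embryos 1, 3 and 4 and 432, 421 and 504 in embryos 2, 5 and 6. Genes of this cluster are near-copies of each other, so the counting may have split reads between them, and single values are uncertain. The ubiquitin ligase gene Fbxo44, in the same window (chr4:145000001-150000000), was at 307.4, 283.5 and 322.5 in NEO-IN embryos 1, 3 and 4. In embryos 2, 5 and 6 it was at 538.2, 552.3 and 536.3. The cause of this split between embryos was not tested. In this window, picked for its calls, 10 of 78 genes were called, against 2.47% of all genes tested. With the trophoblast score as a covariate, Zfp991 and Zfp992 lost their calls (adjusted p = 0.106 and 0.124). Their log2 fold changes were then 1.55 and 1.33.

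Among genes outside these groups, Irak1bp1, which encodes a binding partner of a kinase of Toll-like receptor signalling, had 480.3 to 605 normalized counts (median 559) in NEO-IN, against 219, 202 and 186 in wild-type. All NEO-IN embryos were more than 2-fold above every wild-type embryo (log2 fold change 1.44, with an SE of 0.10 and a limma adjusted p = 1.39e-05). Fcgrt, the heavy chain of the receptor that carries antibodies across the yolk sac and other epithelia, had 337 to 638 (median 549) in NEO-IN and 97.7, 115 and 174 in wild-type (log2 fold change 1.95, with an SE of 0.23 and a limma adjusted p = 0.00109). Gdpd3, a glycerophosphodiesterase gene, had 62.1 to 134 in NEO-IN and 19.7, 12.9 and 31.7 in wild-type (2.20, limma adjusted p = 0.00303). H60b, a ligand of the natural killer cell receptor NKG2D, had 76.5 to 125 in NEO-IN and 46.8, 37.6 and 41.9 in wild-type (1.27, limma adjusted p = 0.00500). Each of these 4 was called in every fit that left out 1 embryo. With the trophoblast score as a covariate, Gdpd3 and H60b lost their calls (adjusted p = 0.0502 and 0.0717). Their log2 fold changes moved little in that fit, to 2.16 and 1.24.

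The calls of the remaining larger increases were less stable when 1 embryo was left out, which also lowered the number of genes called. Apart from Adra2b, every NEO-IN embryo lay above every wild-type embryo for each of them. The X-linked homeobox gene Rhox1 (log2 fold change 1.65) was no longer called without wild-type embryo 1 or 2 (adjusted p up to 0.114). Fbxo44 (1.35), of the chromosome 4 window described above, lost its call without wild-type embryo 2 (0.0546). Clstn2 (1.40), a calsyntenin gene, lost its call without NEO-IN embryo 1 or 5 or wild-type embryo 1 or 2 (up to 0.112). Hoxaas3 (1.92), an antisense RNA of the Hoxa cluster whose reads may mix with those of its sense neighbours, lost its call without any of NEO-IN embryos 1, 2, 3 and 5 and wild-type embryos 1 and 2 (up to 0.1801). Adra2b (1.32), an adrenergic receptor gene, was at 264 in wild-type embryo 1, inside the NEO-IN range of 259.8 to 360.2, and kept its call (limma adjusted p = 0.0463) only without that embryo (up to 0.183 in the other fits).

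Among the largest decreases were Triml2, an adaptor gene and an MHC class II gene. Triml2, of the tripartite motif family (chr8:43180541-43193881), had 87.9 to 169.5 normalized counts (median 122) in NEO-IN, against 856, 958 and 901 in wild-type. The groups are far apart (7.31-fold lower in NEO-IN, log2 fold change -2.87, with an SE of 0.17 and a limma adjusted p = 3.97e-06). Its neighbour and relative Triml1 had 57.7 to 84.4 in NEO-IN and 187, 206 and 159 in wild-type (-1.29, with an SE of 0.17 and a limma adjusted p = 0.00258), and was not called once trophoblast score was a covariate (0.0552). In NEO-OUT, Triml2 spread from 114 to 639.5 (median 321), and the strain difference of -1.10 on the log2 scale was not called (limma adjusted p = 0.111).

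Baiap2l1, an adaptor that links curved membrane to the actin cytoskeleton, had 1265 to 1649 normalized counts (median 1340) in NEO-IN, against 3374, 4220 and 4912 in wild-type. Each NEO-IN embryo held less than the lowest wild-type embryo by a wide margin (log2 fold change -1.56, with an SE of 0.11 and a limma adjusted p = 1.88e-05), and NEO-OUT embryos were at 1119 to 1609. Ulk4, a member of the kinase family of autophagy regulators that is linked to cilia, had 184 to 232 (median 197) in NEO-IN and 592, 459 and 539 in wild-type (-1.40, with an SE of 0.12 and a limma adjusted p = 6.05e-05). Ulbp1, a further NKG2D ligand, had 41.0 to 64.5 in NEO-IN and 114, 146.5 and 179 in wild-type (-1.46, limma adjusted p = 0.00312). It thus went the opposite way to H60b, and of 4 tested genes for such ligands, a family picked after its values were seen, 1 was higher and 1 lower.

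Genes best known from liver metabolism and also active in the yolk sac endoderm were among the called decreases, named here after their values were seen: the transcription factor gene Creb3l3 had 2101 to 2458 in NEO-IN and 3376, 3277 and 3061 in wild-type, and the apolipoprotein gene Apoa2 had 1281 to 2252 in NEO-IN and 2941, 3460 and 3568 in wild-type. Creb3l3 was called in every fit that left out 1 embryo, and Apoa2 not without wild-type embryo 2 or 3 (adjusted p up to 0.0925). Of the 14 genes of the visceral endoderm list none was called (median -0.07). Abundant secreted products had small values, Afp at 0.08 and Ttr at -0.08 on the log2 scale, while Apoa4 had 9316 to 16400 in NEO-IN and 17330, 22470 and 19220 in wild-type and was not called (limma adjusted p = 0.0737).

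The calls of other decreases were less stable in fits that left out 1 embryo. For each gene here but Rps26-ps1, every NEO-IN embryo lay below every wild-type embryo. The manganese transporter gene Slc30a10 (log2 fold change -1.50) was no longer called without wild-type embryo 1 or 2 (adjusted p up to 0.0897), and the lymphocyte receptor gene Btla (-1.38) without wild-type embryo 1 or 3 (up to 0.0523). H2-Ab1, a chain of MHC class II, had 11.7 to 33.7 in NEO-IN and 208, 35.6 and 89.4 in wild-type, was called at an adjusted p of 0.0495 by limma, and kept its call in 2 of 9 fits that left out 1 embryo (adjusted p up to 0.197). Dmrt3 (-1.26), a gene of a DM domain transcription factor, also kept it in 2 of 9 (up to 0.200). The pseudogene Rps26-ps1 was at 287 to 488 in NEO-IN and at 5653, 424 and 5818 in wild-type. Wild-type embryo 2 lay inside the NEO-IN range, the call (log2 fold change -2.82, limma adjusted p = 0.0419) held only without that embryo (up to 0.185 in the other fits), and reads may be shared with the gene Rps26, which was not called (-0.13).

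Most of the abundant genes described here changed by less than 2-fold, while Tpm3 and the pseudogene Gm1821 changed by more. Tpm3, a tropomyosin that coats actin filaments, had 19980 to 30310 normalized counts (median 20760) in NEO-IN, against 11000, 10020 and 10350 in wild-type. NEO-IN embryos 1 and 4 were higher than the other 4, and all 6 were above wild-type (log2 fold change 1.12, with an SE of 0.12 and a limma adjusted p = 0.000469). The tropomyosins were then looked at as a family, after this value was seen: Tpm4 (0.40) and Tpm1 (0.29) were also called higher, and Tpm2 (0.21) was not (limma adjusted p = 0.255). Tpm1 lost its call without NEO-IN embryo 6 or any wild-type embryo (adjusted p up to 0.131). Hmgb2, a chromatin protein of dividing cells, had 31320 to 35410 in NEO-IN and 24660, 24580 and 22140 in wild-type (0.47, with an SE of 0.05 and a limma adjusted p = 0.000424). Nle1, a ribosome assembly factor, was higher (0.56), as was Rpap2, a phosphatase of RNA polymerase II (0.56). Fignl1, an ATPase of recombination repair, had 4355 to 4864 in NEO-IN and 6608, 6653 and 5890 in wild-type (-0.47, with an SE of 0.05 and a limma adjusted p = 0.000777), and the membrane fusion gene Snap47 was lower by a similar margin (-0.43). The pseudogenes Gm1821 (1.23) and 5830417I10Rik (0.69) were higher, and their reads may come in part from parent genes. Tpm3 and these 7 genes other than tropomyosins were each called in every fit that left out 1 embryo. Gm1821 was not called when all 15 libraries shared 1 estimate of the spread (limma adjusted p = 0.573), and its level ran from 52.4 to 1924 among the NEO-OUT embryos.

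Lists of the mesoderm and its derivatives, the tissues in which the apelin receptor acts, gave at most 1 call each. Over all genes tested 2.47% were called, and at that share lists of this size hold few calls in any case. Of 16 primitive streak genes none was called and 13 had negative fold changes, with a median log2 fold change of -0.21 against 0.001 over all genes. Snai1, which drives cells out of the epithelium, had 1119 to 1649 normalized counts in NEO-IN and 1798, 1924 and 2129 in wild-type, with no overlap, and missed the threshold (-0.43, limma adjusted p = 0.0568). Mesp1, which marks the first heart and vessel precursors, had 265 to 528 in NEO-IN and 553, 547 and 559 in wild-type (-0.52, limma adjusted p = 0.147). Brachyury (T) was at -0.07. With the trophoblast score as a covariate the median of the streak list became 0.11.

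Of 16 cardiac mesoderm genes none was called and 14 were negative (median -0.10). Myl7, an atrial myosin light chain, had 509.9 to 861 in NEO-IN and 1051, 933.5 and 845 in wild-type (-0.48, limma adjusted p = 0.0835), whereas the sarcomere genes Tnnt2 and Actc1 had positive values (0.31 and 0.28). Of 12 paraxial mesoderm genes 1 was called, the forkhead gene Foxc2, at 725 to 971 in NEO-IN and 1193, 1356 and 1030 in wild-type (-0.45, limma adjusted p = 0.0458), which kept its call in 2 of 9 fits that left out 1 embryo (up to 0.197). No endothelial gene of 12 was called (median -0.07), Kdr standing at -0.13 and Tek at 0.33. No primitive blood gene of 15 was called (median 0.08). The embryonic globin gene Hbb-bh1 varied widely, at 1567 to 3989 in NEO-IN and 1241, 1161 and 1481 in wild-type (0.90, limma adjusted p = 0.131).

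**Figure D4:**
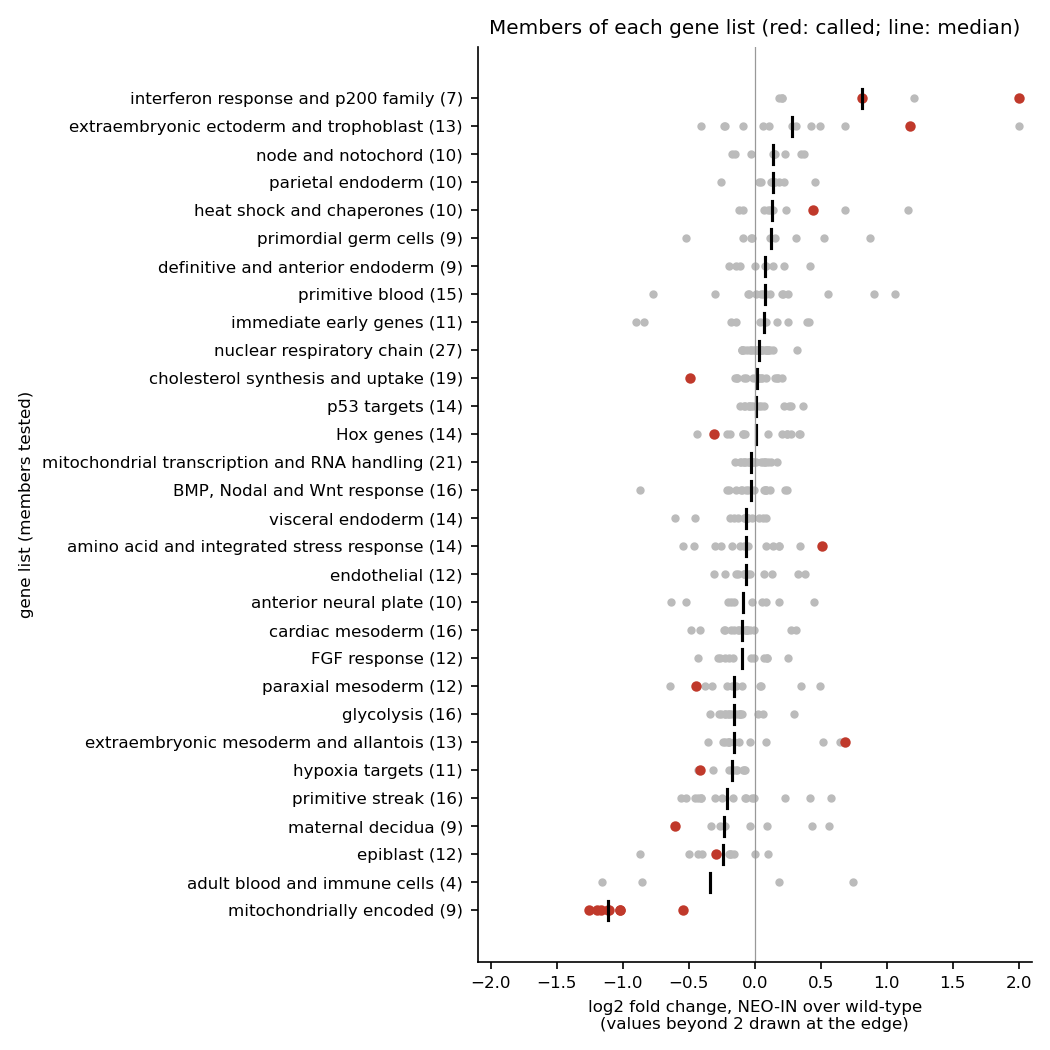
Log2 fold change in NEO-IN over wild-type embryos (x axis) of each tested member of 30 gene lists (rows, with the number tested). Red points were called, grey points were not, and a black line marks each list's median, -1.11 for mitochondrially encoded genes, 0.81 for the interferon and p200 list and between -0.34 and 0.28 for the others. The interferon and p200 median includes Ifi204 and Ifi207, which reached the minimum level through NEO-IN embryos alone. That raises it, so it is no measure of the list.

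Lists of other embryonic tissues also gave at most 1 call each, where 2.47% of all genes tested were called. Of 12 epiblast genes 10 were negative (median -0.24) and Zic5 was called, at 1292 to 1478 in NEO-IN and 1580, 1745 and 1691 in wild-type (-0.30, limma adjusted p = 0.0379), with the call kept in 2 of 9 fits that left out 1 embryo (up to 0.167). Pou5f1 was at 0.00 and Sox2 at -0.19. Of 14 Hox genes, which come on in order and so read developmental stage, 7 were positive and 7 negative (median 0.01). Hoxb2 was called lower (-0.31) and kept that call in 2 of 9 such fits (up to 0.143), while the later genes Hoxb8 and Hoxb9 were at 0.34 and 0.20. None was called of 10 node and notochord genes (median 0.14), 9 of definitive and anterior endoderm (0.08), 10 of the anterior neural plate (-0.09) and 9 of primordial germ cells (0.12).

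Extraembryonic and maternal tissue markers differed between embryos as well as between groups. Of 13 extraembryonic ectoderm and trophoblast genes 9 were positive (median 0.28) and the X-linked homeobox gene Rhox9 was called higher. It had 225 to 609 normalized counts in NEO-IN and 127, 161 and 130.4 in wild-type (log2 fold change 1.18, limma adjusted p = 0.0343), and lost its call without NEO-IN embryo 1 or 2 or any wild-type embryo (up to 0.128). The list's summed level overlapped, at 47990 to 61920 in NEO-IN and 51430, 48000 and 56660 in wild-type, and its score, the mean centred log2 level of its members, was -0.34 to 0.65 in NEO-IN and -0.34, -0.39 and -0.20 in wild-type. The score was above all wild-type embryos in each NEO-IN embryo except number 5. NEO-IN embryo 6 held the highest levels of the giant cell hormones Prl3d1 (276) and Prl2c2 (41.0) and of the decidual gene Prl8a2 (56.7), which reached 15.5, 3.97 and 19.4 in the other NEO-IN embryos and 0, 0 and 1.98 in wild-type. The part of trophoblast content in the results was not tested beyond the fit with this score, in which 26 of the 52 called genes named by rule lost their calls. As the score partly followed the group, that fit cannot tell score and group apart, and a lost call there is no measure of trophoblast content.

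Of 13 genes of extraembryonic mesoderm and allantois, Tdo2, an enzyme of tryptophan breakdown, was called higher, at 628 to 853 in NEO-IN and 528, 346.5 and 436 in wild-type (0.68, limma adjusted p = 0.0201). It was no longer called without wild-type embryo 2 or 3 (up to 0.0934). None of 10 parietal endoderm genes was called (median 0.14), although 9 were positive, Col4a2 of the basement membrane at 0.15 among them. Of 9 maternal decidua genes Dio3, which inactivates thyroid hormone, was called lower, at 137 to 185 in NEO-IN and 228, 221 and 246 in wild-type (-0.60, limma adjusted p = 0.0317). That call was kept only without NEO-IN embryo 6 (up to 0.136 in the other fits). Of 14 adult blood and immune cell genes 4 reached the minimum level and none was called, with summed levels of 136 to 359 in NEO-IN and 201, 180.2 and 312 in wild-type.

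Among stress and metabolic genes, the 11 tested hypoxia targets all had negative log2 fold changes, from -0.43 to -0.07 (median -0.17), and Egln3, an oxygen-sensing prolyl hydroxylase, was called lower, at 1847 to 2210 in NEO-IN and 2828, 2943 and 2386 in wild-type (-0.41, limma adjusted p = 0.0253). Egln3 was no longer called without wild-type embryo 1 or 2 (up to 0.131). Single embryos did not all follow the list: its score was 0.35 in NEO-IN embryo 6 and -0.29 to -0.05 in the other NEO-IN embryos, against 0.20, 0.12 and 0.09 in wild-type, and its summed levels overlapped, at 104900 to 119400 in NEO-IN and 125600, 119100 and 115700 in wild-type. The vasodilator peptide gene Adm was at 545 in NEO-IN embryo 6, against at most 85.7 in wild-type. Of 16 glycolysis genes 13 were negative and none was called (median -0.16), with Aldoa at -0.23 (limma adjusted p = 0.0637). Stc1 and Pfkfb3, which low oxygen induces in many cells, were among the called decreases and are named after their values were seen: Stc1 had 81.6 to 158 in NEO-IN and 221, 279 and 254 in wild-type. Stc1 lost its call without any one of the wild-type embryos (adjusted p up to 0.124), and Pfkfb3 without wild-type embryo 1 or 2 (up to 0.140). Targets of p53 gave no call of 14 (median 0.01), Cdkn1a standing at -0.04.

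Hspe1, the mitochondrial co-chaperonin, had 17810 to 18810 normalized counts in NEO-IN and 11890, 14230 and 14100 in wild-type (log2 fold change 0.44, with an SE of 0.05 and a limma adjusted p = 0.00117). It was the only one of 10 heat shock genes called, while the inducible Hspa1a was at 110.5, 122 and 57.5 in NEO-IN embryos 1 to 3 and at 21.2, 20.49 and 18.6 in NEO-IN embryos 4 to 6, against 22.9, 25.7 and 11.2 in wild-type. Phgdh, the first enzyme of serine synthesis, had 13200 to 15750 in NEO-IN and 9645, 9103 and 11850 in wild-type (0.51, with an SE of 0.08 and a limma adjusted p = 0.00640), alone among 14 genes of amino acid and integrated stress response, and was not called once trophoblast score was a covariate (0.0944). Hmgcs1, which opens cholesterol synthesis, was lower (-0.49, limma adjusted p = 0.0393) among 19 genes of that pathway (median 0.02), and kept its call in 2 of 9 fits that left out 1 embryo (up to 0.173). None was called of 12 FGF response genes (median -0.10), 16 BMP, Nodal and Wnt response genes (-0.03) or 11 immediate early genes (0.07).

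Chromosome 8, which carries Apela, held a larger share of called genes than each other autosome or the X. On this chromosome 53 of 847 genes were called (6.26%), 30 higher and 23 lower, against 1.24% on the X and 1.53% to 3.17% on the other autosomes. Apart from Apela itself, 24 of 149 genes within 10 Mb of it were called (16.1%), from 10 to 20 Mb 3 of 123 (2.44%), from 20 to 30 Mb 11 of 107 (10.3%) and from 30 to 70 Mb 14 of 467 (3.0%). The share thus did not fall evenly with distance. Of the 24, 19 lay in chr8:70000001-75000000, where 95 genes were tested. The called genes nearest to Apela on its 2 sides were Cbr4 (-3.54 Mb) and Zfp930 (4.19 Mb), and no tested gene between these was called. Several genes described above lie here, among them Triml1, Triml2, Bst2, Hmgb2, Tpm4 and Foxc2.

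The largest increase in this region was Fgl1, a secreted fibrinogen-like protein (chr8:41191434-41215156), at 56.3 to 78.9 normalized counts in NEO-IN and 0, 1.98 and 1.86 in wild-type. B3gnt3, a glycosyltransferase gene (chr8:71690756-71701789), had 423 to 538 (median 486) in NEO-IN and 64.4, 75.2 and 262 in wild-type, where embryo 3 stood well above the other 2 (log2 fold change 2.12, with an SE of 0.33 and a limma adjusted p = 0.00649). Vegfc, a growth factor of lymphatic vessels, named after its value was seen, had 164 to 201 in NEO-IN and 56.1, 87.1 and 105 in wild-type (1.16, with an SE of 0.18 and a limma adjusted p = 0.00632). In the NEO-OUT embryos the medians were 54.6 for Fgl1, 552 for B3gnt3 and 187 for Vegfc, and none of these was called different between the strains. With the trophoblast score as a covariate B3gnt3 and Vegfc lost their calls (adjusted p = 0.106 and 0.119). In that fit the log2 fold change of B3gnt3 was 2.01.

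**Figure D5:**
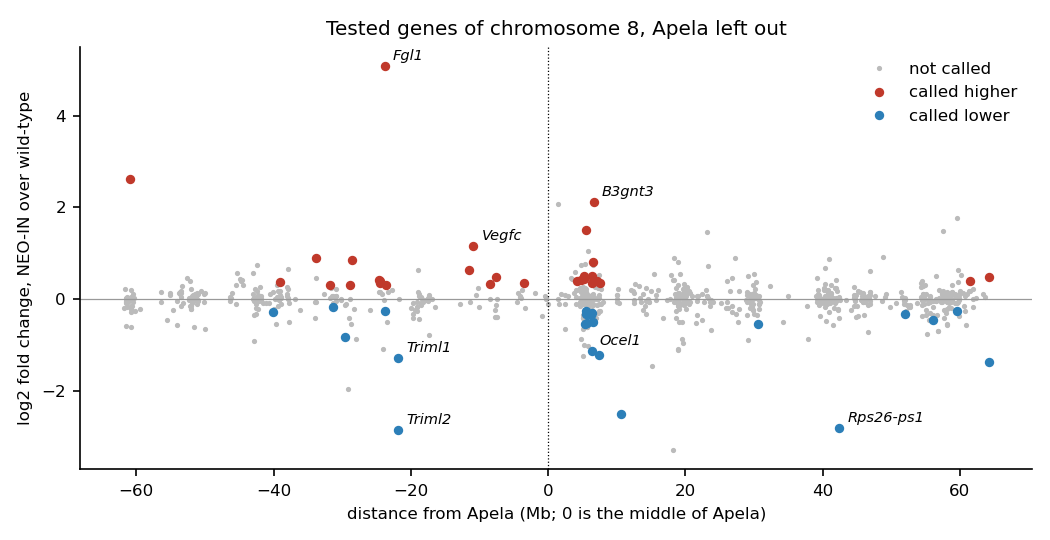
Log2 fold change in NEO-IN over wild-type embryos (y axis) of the tested genes of chromosome 8 other than Apela, by distance from the middle of Apela in megabases (x axis). Red points were called higher, blue points lower and grey points were not called. Called genes crowd from 4.19 to 7.54 Mb to the right of Apela and about 20 to 30 Mb to its left.

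NEO-IN was set against NEO-OUT to ask which of the named changes differ between the 2 knockout strains. Of 16392 genes tested 1900 were called (11.6%), and of the 52 called genes named by rule in NEO-IN versus wild-type 22 were among them. Most of the 52 were picked for their values in the same NEO-IN embryos. That by itself enlarges their difference from NEO-OUT, so the 2 shares cannot be compared. Irak1bp1 was at 480.3 to 605 in NEO-IN and 149 to 232 in NEO-OUT, a difference of 1.55 on the log2 scale (limma adjusted p = 5.22e-07). Tpm3 was at 19980 to 30310 in NEO-IN and 10300 to 11210 in NEO-OUT (1.07, limma adjusted p = 2.59e-06). Gdpd3 (2.94), Znf41-ps (3.93), Zfp991 (2.51), Zfp992 (2.40) and H60b (1.41) were likewise higher in NEO-IN, where NEO-OUT embryos lay near or below the wild-type values.

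Ifi204 was at 0 to 1412 in NEO-IN and 0 to 3.92 in NEO-OUT (7.79, limma adjusted p = 0.00245). Among the decreases, Dmrt3 was at 31.3 to 67.4 in NEO-IN and 104 to 145 in NEO-OUT (-1.44, limma adjusted p = 0.000373), and Fignl1 at 4355 to 4864 in NEO-IN and 6563 to 8439 in NEO-OUT (-0.64, limma adjusted p = 4.39e-06). Lncenc1, B3gnt3, Bst2, Hmgb2, Triml1, Baiap2l1 and Ulk4 were not called different between the strains.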

How the data were processed

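Polyadenylated RNA from single embryos was made into TruSeq Stranded mRNA libraries, per the labels' protocols. Tools named are kallisto, featureCounts, STAR, DESeq2 and Picard, with the build mm10, per the submitters' processing notes; roles, versions and the use of strand in counting are not given in the sources used here. The authors deposited a signal value per gene and library, the read count divided by a size factor, called the normalized count here. Dividing by each library's step gave whole reads for 100.0% of values (tolerance 0.01); 76.9% to 78.6% of counts from 1 to 20 were even, so the recovered unit may not be 1 independent fragment. In wild-type embryo 2 and NEO-IN embryo 3 the size factor lies near 1 (1.01 in both), where recovered reads are harder to tell from the deposited values; the limma test does not use recovered reads. Of the gene identifiers, 98.6% matched GENCODE on GRCm38, which gave symbols and coordinates. A stray letter in 1 cell was dropped.

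Genes with a mean of at least 10 were tested with limma 3.58.1 (limma-trend, R 4.3.3) on log2(normalized count + 1), which understates changes of low genes, with Benjamini-Hochberg adjustment; the step was tested on simulated data. No pair of libraries in a group agreed within sampling noise. The embryos, the genes and the 32 gene lists were chosen with earlier results of these data known. The genes named by rule are the apelin pathway genes; 15 increases and 15 decreases, those of greatest size among called genes with a mean of at least 50 and a proper symbol; the 10 called genes of smallest p with a mean of at least 1000 and no overlap; and up to 4 called members, or else 2 of smallest p, of each list. A few members named by rule are not described singly, and some are not reported here. Lists have counts and medians, without tests. Alternatives changed pseudocount, filter, scaling, variance model, covariates, libraries and tool (edgeR 4.0.16, DESeq2 1.42.0 on recovered reads). Precision is bounded by depth for low genes and by having 3 wild-type embryos. Plots used matplotlib 3.10.9 (Python 3.11.15).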

Additional observations from a re-analysis of the deposited data

Results flagged for a closer look

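Single NEO-IN embryos stood apart from the other 5 for 10 of the named genes, of which at most 92 were examined. The measure was the gap to the nearest embryo over the range (Dixon's criterion), which chance alone meets in about 1 in 20 groups. NEO-IN embryo 6 was apart for Hoxaas3 (347.8), Rhox9 (608.6), the immune receptor gene Btla (62.52), the thyroid hormone enzyme gene Dio3 (184.6) and 5830417I10Rik (1645). NEO-IN embryo 1 was apart for Snai1 (1119), Ndufs1 (9732) and the lactate dehydrogenase gene Ldhb (5325), NEO-IN embryo 3 for Rps26-ps1 (487.7) and NEO-IN embryo 4 for Apela (25.9). Over all 16416 tested genes, NEO-IN embryo 1 was apart most often, for 298 genes, against 84 to 165 for each of the others.

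The size of the change differed between the knockout strains for 22 of the 52 named genes called in NEO-IN versus wild-type, tested directly as NEO-IN minus NEO-OUT on the log2 scale with limma. Over all genes tested 11.6% differed. Named genes, called or not, were mostly picked by values of the same NEO-IN embryos, which favours such differences, so these counts do not measure how often the strains differ. Higher in NEO-IN were Ifi204 (7.79), Znf41-ps (3.93), Gm1821 (3.34), Gdpd3 (2.94), Zfp991 (2.51), Zfp992 (2.40), Clstn2 (2.22), Irak1bp1 (1.55), H60b (1.41), Fbxo44 (1.30), Tpm3 (1.07), Tdo2 (0.55) and Nle1 (0.37). Among those lower in NEO-IN were Apela (-2.60), Dmrt3 (-1.44), Btla (-1.17), Slc30a10 (-1.09), Ulbp1 (-1.03), Fignl1 (-0.64), Dio3 (-0.48) and Snap47 (-0.30). The difference was lost for Gm1821 without NEO-OUT embryo 7, 8 or 10 (adjusted p = 0.0513, 0.0568 and 0.0587) and for Ulbp1 in 8 fits that left out 1 embryo (0.0504 to 0.0700). Of the 40 named genes not called in NEO-IN versus wild-type, 12 also differed between the strains, among them Myl7 (-0.45, adjusted p = 0.0214), Ldhb (-0.34, 0.00104) and Aldoa (-0.18, 0.0306), each lower in NEO-IN.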

How the results depend on the processing

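Calls in NEO-IN embryos against wild-type, 406 by the main test (215 higher, 191 lower), numbered 1087 with DESeq2 (556 higher, 531 lower), 191 without the variance trend (99 higher, 92 lower) and 78 once trophoblast score was a covariate (41 higher, 37 lower). With array quality weights 288 genes were lower. Leaving out 1 embryo gave 159 to 359 (higher 90 to 199, lower 67 to 162); without NEO-IN embryo 2, 120 were lower. The cause of these differences was not tested. Under edgeR (418), other pseudocounts (390 and 411), other filters (352 and 380), TMM (388) or upper quartile scaling (383), robust variance (421), all 15 libraries (488), the Y-linked covariate (354) and embryos 4 to 6 (361) or 1 to 3 (534) alone, the total stayed within 1.5 times; with upper quartile scaling 187 were higher and 196 lower. A replicate block by embryo number gave 498 calls; numbers shared by a NEO-IN and a wild-type embryo did not pair them (correlations of 0.07, -0.02 and 0.01). Against NEO-OUT, calls stayed within 1.5 times of 1900 in each alternative run. Of the 92 named genes none changed direction under any of these settings once called, 26 calls were lost with the trophoblast covariate, and 8 with all 15 libraries, Gm1821 among them (adjusted p = 0.573). Depth limits low genes, and each wild-type embryo weighs on the count.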
